A study of Mus musculus with 2 samples.

Results

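Collagen chains, laminin chains and integrin subunits were examined in RNA-seq libraries from 2 kinds of mouse embryonic stem cell (ESC), parental E14 and the mutant Sox2 T258A. Members were the rows of the deposited mouse gene table whose symbol has the form of a collagen, laminin or integrin gene, and 83 of 24532 genes met this rule. They comprised 44 collagen chains and 11 laminin chains, here called the 55 ligand chains, and 27 integrin subunits (18 alpha and 9 beta), here called the receptor subunits. The last member, Itgbl1, shares sequence features with integrin beta chains but is not a receptor subunit and was counted in neither class.

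E14, a male ESC line in long use, was grown by the study in serum with leukemia inhibitory factor (LIF). The Sox2 T258A cells derive from E14 and carry an edit, made by CRISPR/Cas9 with a single-stranded donor DNA, by which 1 Sox2 allele encodes alanine in place of threonine 258, while the other allele is wild type. They were isolated as clones grown from single cells, and the methods do not say how many clones went into the library. Sox2 is a transcription factor of pluripotent cells whose threonine 258 can carry the sugar O-GlcNAc, and the comparison of both cells asks which genes depend on that site. Selection and routine growth of the edited cells took place in serum and LIF with 2i, which is the Mek inhibitor PD0325901 and the Gsk3 inhibitor CHIR99021, and 2i was withdrawn some passages ahead of the experiments. Each genotype had 1 library of polyadenylated RNA, so that genotype, clonal origin and culture history cannot be told apart and no difference has a replicate check.

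Collagens and laminins are secreted chains that assemble into trimers. Laminin trimers, each of an alpha, a beta and a gamma chain, and collagen IV form the sheets of the basement membrane, whereas fibrillar collagens form the fibers of connective tissue. Integrins are cell surface dimers of an alpha and a beta subunit that bind these proteins outside the cell and link to the actin cytoskeleton inside it. In the early mouse embryo, laminins and collagen IV of the first basement membranes lie beside the pluripotent epithelium and the primitive endoderm, and ESCs attach to laminin through beta1 integrins.

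Counted reads totalled 60263536 in E14 and 44609228 in Sox2 T258A cells, and members took 0.298% and 0.336% of them. TPM, the unit of the levels below, is a read count per transcript length scaled to a like sum in each library. Pluripotent cell markers were high in both libraries (summed TPM over 7 genes of 5232 in E14 and 4643 in Sox2 T258A cells). Nanog alone of these was more than 2-fold lower in Sox2 T258A cells, with a TPM of 527 in E14 and 251 in Sox2 T258A cells. Sox2 itself had a TPM of 373 and 274, and gene totals do not show which allele was read. The 95% intervals given below with log2 ratios were obtained from the read counts by the exact Clopper-Pearson method and cover counting error only.

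Levels of the members spanned a wide range. Of the 83 members, 18 reached a TPM of 10 in at least 1 library, 29 reached 1 but not 10, 29 had reads but stayed under 1 in both libraries, and 7 had no reads in either (Col4a3, Col10a1, Col19a1, Itga2, Itgad, Itgax and Itgb2l). A count of 0 allows up to 3 reads, which correspond to 0.0498 CPM (counts scaled to the library total) in E14 and 0.0673 CPM in Sox2 T258A cells. Members that reached 10 TPM were 5 of the 11 laminin chains, 6 of the 44 collagen chains and 7 of the 27 receptor subunits. The highest levels in both libraries belonged to Itgb1, Col18a1 and Lamc1. Itgbl1 had 4 reads in E14 and 7 in Sox2 T258A cells.

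**Figure D1:**
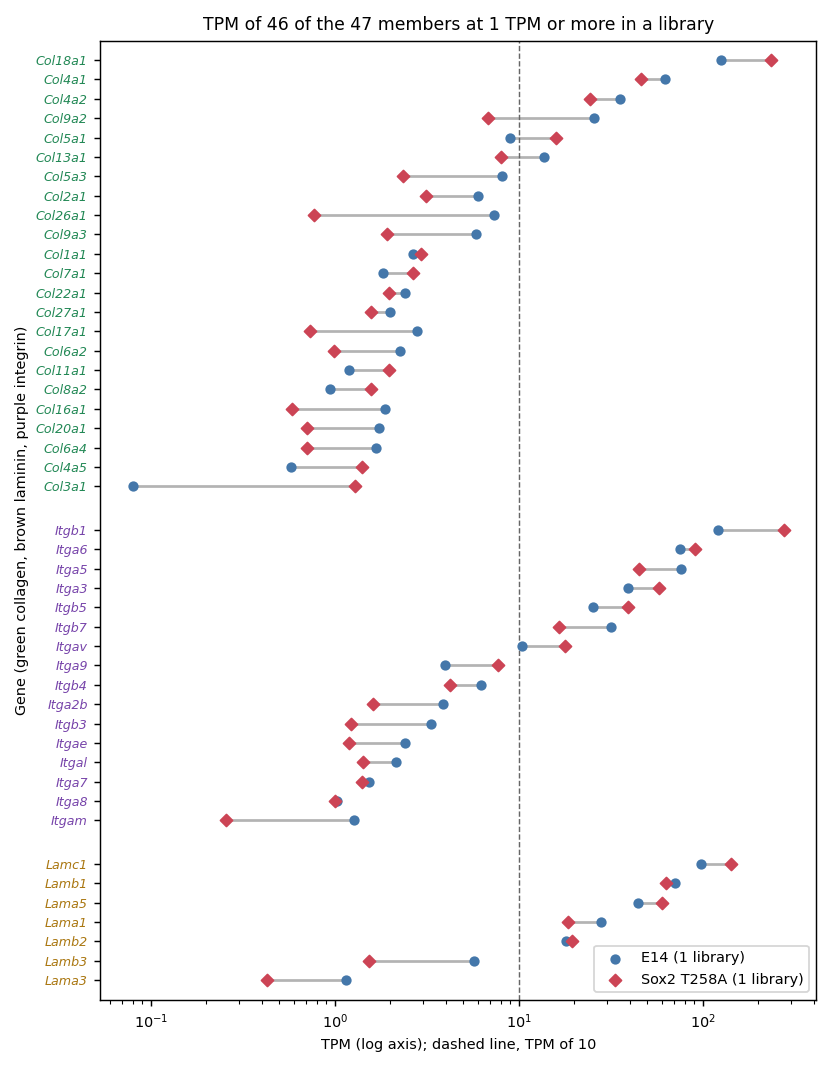
TPM (log axis) of 46 of the 47 members that reached 1 TPM in at least 1 library, with E14 as circles and Sox2 T258A as diamonds, 1 library each. Itgb1 and Col18a1 stand at the top of their families in both libraries (121 and 275 TPM, and 126 and 236 TPM), and most collagens under 10 TPM have the diamond to the left of the circle.

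Among members that reached 10 TPM in either library, Itgb1 was the only one more than 2-fold higher in Sox2 T258A cells, and Col9a2 the only one more than 2-fold lower. These are 1 of the 18 members past the filter in each direction (5.56%), beside 4.17% of 9094 genes called higher and 4.07% called lower by the same rule. All 18 had an interval that excluded no change, 10 of them on the higher side and 8 on the lower side. The share of all genes with such an interval was not counted. With many reads the interval is narrow, so that even Lamb2, with a log2 ratio of 0.11, is among the 18. In bulk RNA, fewer cells of a type and less RNA per cell cannot be told apart for any of these differences.

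Itgb1 encodes integrin beta1, the shared partner of most laminin, collagen and fibronectin receptors. It had 15976 reads in E14 and 24371 in Sox2 T258A cells, a TPM of 121 and 275. The higher library was that of Sox2 T258A cells, with a log2 ratio of 1.19 (95% interval 1.16 to 1.22), or 2.28-fold. Itgb1 lies on chromosome 8 (128685654 to 128733579, GRCm38), where the median log2 ratio of 723 genes was 0.26, beside 0.04 over the 13269 genes whose mean TPM was 1 or more. Its log2 ratio was 0.93 after subtraction of the chromosome median and 0.97 after removal of the trend with GC content and transcript length, both short of 2-fold.

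Col9a2 encodes a chain of collagen IX, which sits on the surface of cartilage fibrils. Its reads numbered 2212 in E14 and 392 in Sox2 T258A cells, a TPM of 25.6 and 6.76. This is a log2 ratio of -1.92 (-2.08 to -1.76), the lowest among members at 10 TPM. Its partner chains were lower too, since Col9a3 had a TPM of 5.85 and 1.91 (log2 ratio -1.61, interval -1.92 to -1.32) and Col9a1 had 18 reads in E14 and 0 in Sox2 T258A cells. Against the limit of 3 reads, and with the 18 reads taken as exact, Col9a1 was at least 4.02-fold lower, while the 95% interval of its log2 ratio reached up to -1.56. All 3 chains of the collagen IX trimer therefore stood lower in Sox2 T258A cells, although 6.07% of the exon bases of Col9a3 are shared with Tcfl5 on the other strand.

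The bases before the transcription start are shown for the member called higher, Itgb1, and for the member with the highest ratio among those at 1 TPM, Col3a1, described below. Windows of 250 bases were taken from RefSeq promoters of GRCm38.p6, on the plus strand and ending just before the start, and capitals mark matches on either strand to the GC box GGGCGG, the CCAAT box, the TATA box with the letters TATAAA or the Sox protein core with the letters CATTGT. The Itgb1 window is chr8:128685404-128685653 and the Col3a1 window is chr1:45311288-45311537.
Itgb1: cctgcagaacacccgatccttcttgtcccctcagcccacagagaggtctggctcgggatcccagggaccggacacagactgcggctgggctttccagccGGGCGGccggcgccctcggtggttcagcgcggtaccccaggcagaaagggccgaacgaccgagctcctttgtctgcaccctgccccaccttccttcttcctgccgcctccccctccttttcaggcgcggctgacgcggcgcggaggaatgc
Col3a1: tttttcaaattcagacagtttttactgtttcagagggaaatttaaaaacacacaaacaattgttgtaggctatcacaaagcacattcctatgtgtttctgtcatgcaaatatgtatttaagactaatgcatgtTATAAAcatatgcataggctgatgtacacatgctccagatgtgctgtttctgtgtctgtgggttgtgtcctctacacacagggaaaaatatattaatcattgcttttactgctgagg

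The Itgb1 window was 68.0% G and C and held 1 GC box, whereas the Col3a1 window was 35.2% G and C with a TATAAA match and no GC box. The median over all promoter windows was 52.4%. Windows were found for 60 of the 83 members, 66 in all. GGGCGG was present in 48.5% of these 66 windows and in 32.7% of all 32851 windows. CCAAT was present in 27.3% of the members' windows and 33.8% of all, TATAAA in 7.58% and 12.4%, and CATTGT in 3.03% and 10.7%. No motif contains another, and a match describes the letters of the window only.

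Among laminin chains, the alpha5 and gamma1 chains were higher in Sox2 T258A cells and the alpha1 chain was lower. Lamc1, the gamma chain of most laminins, had the highest level of the family, with 23511 reads in E14 and 22985 in Sox2 T258A cells (TPM 97.9 and 143, log2 ratio 0.55, interval 0.52 to 0.57). Lama5, the alpha chain of laminin-511 and laminin-521, had a TPM of 44.5 and 60.3 (0.44, 0.41 to 0.47). Lama1, the alpha chain of laminin-111 in the earliest embryonic basement membranes, had a TPM of 27.9 and 18.6 (-0.59, -0.65 to -0.53). The level of Lama5 was thus 1.59 times that of Lama1 in E14 and 3.25 times in Sox2 T258A cells, and Lama5 made up 59.7% and 75.4% of the summed TPM of the 5 alpha chains.

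The beta chains of the same trimers differed little. Lamb1 had a TPM of 70.6 in E14 and 63.2 in Sox2 T258A cells (log2 ratio -0.16, interval -0.20 to -0.12). Lamb2, its counterpart in laminin-521, had a TPM of 18.1 and 19.5 (0.11, 0.03 to 0.18). With the ratio of FPKM, fragments scaled by length and by library, in place of TPM, the value for Lamb2 was -0.037, so that its direction rests on the scaling. Lamb1 made up 74.8% of the summed TPM of the 3 beta chains in E14 and 75.1% in Sox2 T258A cells.

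Lamb3 and Lama3, chains of laminin-332 in epithelial hemidesmosomes, were lower in Sox2 T258A cells. Lamb3 had a TPM of 5.68 in E14 and 1.53 in Sox2 T258A cells (log2 ratio -1.89, interval -2.17 to -1.62), and Lama3 had 1.15 and 0.427 (-1.44, -1.78 to -1.11). Laminins under 1 TPM were Lamc3 with 97 reads in E14 and 4 in Sox2 T258A cells (log2 ratio -4.02, -5.92 to -2.61), Lama4 with 176 and 90 (-0.40, -0.78 to -0.03) and Lama2 with 6 and 5. Of the exon bases of Lamc3, 6.27% lie within Gm13441 on the other strand.

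Collagen IV, the network collagen of basement membranes, was lower in its main chains, while Col4a5 and Col4a6, of its minor chains, were higher. Col4a1 had 12902 reads in E14 and 6473 in Sox2 T258A cells, a TPM of 61.9 and 46.4 (log2 ratio -0.42, interval -0.46 to -0.37). Col4a2 had 7169 and 3310 reads, a TPM of 35.3 and 24.3 (-0.54, -0.60 to -0.48). The ratio of Col4a1 to Col4a2 was 1.75 in E14 and 1.91 in Sox2 T258A cells, so that the chains of this trimer kept near the same proportion. Both lie on chromosome 8, whose median was above that of all genes, and after its subtraction their log2 ratios were -0.67 and -0.79.

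Col4a1 and Col4a2 are transcribed in opposite directions from starts that overlap, and this is the only stretch of exon that members of the rule share with each other in the annotation used. The shared bases, chr8:11312805-11312826 of GRCm38.p6 written on the plus strand (the direction of Col4a2), hold a GC box in capitals.
Col4a1 and Col4a2: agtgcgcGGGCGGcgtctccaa

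Reads from these 22 bases cannot be told apart without strand, but they are 0.295% of the exon bases of Col4a1. The windows before the Col4a1 and Col4a2 starts both held the CCAAT box, and that of Col4a2 also held the GC box. Of the chains found in the collagen IV of other basement membranes, Col4a5 had a TPM of 0.580 in E14 and 1.41 in Sox2 T258A cells (log2 ratio 1.28, interval 0.94 to 1.62) and Col4a6 had 12 reads and 35 reads (2.13, 1.15 to 3.22). Both lie on chromosome X. Col4a4 had 3 reads in E14 and 5 in Sox2 T258A cells (log2 ratio 1.58, interval -0.78 to 4.26), and Col4a3 had none.

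Markers of primitive and parietal endoderm, cells that secrete laminin-111 and collagen IV, were mostly lower in Sox2 T258A cells, and Col4a1, Col4a2 and Lama1 were lower too. Of the other laminin-111 chains, Lamc1 was higher (log2 ratio 0.55) and Lamb1 was slightly lower (-0.16). Of the 12 markers listed, 9 had a mean TPM over 1 and 8 of these were lower, with a median log2 ratio of -1.59. Among all genes at a mean TPM of 1 to 10, 2571 of 4604 were lower, with a median of -0.12. The summed TPM of all 12 markers was 59.8 in E14 and 25.5 in Sox2 T258A cells. Gata4 had a TPM of 15.0 and 3.80, Gata6 of 9.46 and 2.58, Sox17 of 3.32 and 0.778, while Dab2 had 8.87 and 7.36, Cubn 3.43 and 3.87, and Afp no reads. The part of such cells in the collagen IV and laminin values was not tested.

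Col18a1 had the highest level of any ligand chain. It encodes collagen XVIII, a basement membrane collagen with heparan sulfate chains whose end fragment is endostatin, and lies on chromosome 10 (77052178 to 77166530). Its reads numbered 20004 in E14 and 25204 in Sox2 T258A cells, a TPM of 126 and 236 (log2 ratio 0.91, interval 0.88 to 0.93), short of 2-fold. It made up 21.0% of the summed TPM of all ligand chains in E14 and 34.4% in Sox2 T258A cells. The related Col15a1 had 44 reads in E14 and 4 in Sox2 T258A cells (-2.87, -4.81 to -1.42).

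Other collagens at 10 TPM were Col5a1 and Col13a1. Col5a1, a chain of collagen V that starts the assembly of collagen fibrils, had a TPM of 8.95 in E14 and 15.8 in Sox2 T258A cells (log2 ratio 0.82, interval 0.74 to 0.90). Col13a1, a transmembrane collagen, had 13.7 and 8.04 (-0.77, -0.92 to -0.62). Another collagen V chain, Col5a3, went against Col5a1, with a TPM of 8.13 and 2.35 (-1.79, -1.97 to -1.61). The remaining collagen V chain, Col5a2, was higher like Col5a1 but under 1 TPM, at 0.301 and 0.710 (1.24, 0.77 to 1.71).

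Between 1 and 10 TPM, members were mostly lower in Sox2 T258A cells, 21 of 29, and the interval lay wholly beyond 2-fold for 9 lower and 1 higher. With the members at 10 TPM included, 10 of 47 (21.3%) were lower with the whole interval beyond 2-fold, where the same rule called 6.02% of 13729 genes. On the higher side 2 of 47 (4.26%) were called, beside 4.28% of all genes. Collagens and laminins supplied 8 of the 10 lower calls, from 31 chains past the filter (25.8%). Receptor subunits supplied 2, Itgb3 and Itgam, from 16 past the filter (12.5%), and 68.7% of the exon bases of Itgam are shared with Gm49368. Of the lower calls, Col26a1, Col17a1, Col16a1, Lama3 and Itgam reached 1 TPM in E14 only. Of the higher calls, Col3a1 reached it in Sox2 T258A cells only. Without the requirement on the interval, 14 of 47 members were more than 2-fold lower (9.95% of all genes) and 3 were more than 2-fold higher (6.45% of all genes).

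Col26a1, which encodes a small collagen with an EMI domain, had the lowest ratio of these, with 651 reads in E14 and 46 in Sox2 T258A cells (TPM 7.35 and 0.766, log2 ratio -3.26, interval -3.73 to -2.83). Col17a1, a transmembrane collagen of hemidesmosomes, had a TPM of 2.79 and 0.734 (-1.93, -2.27 to -1.59). Col16a1, a fibril-associated collagen, had 1.87 and 0.586 (-1.67, -2.08 to -1.28). These chains, like Lama3 and Lamb3, were among the lower calls above, so their shared direction follows from how they were picked. Col17a1 belongs with laminin-332 and Itgb4 to the hemidesmosome, whose chains did not all share a direction. Itga6, the partner of Itgb4 there, was higher (log2 ratio 0.27).

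Col3a1 went the other way from a low level. It encodes the fibrillar collagen of skin and vessels, and had 15 reads in E14 and 151 in Sox2 T258A cells, a TPM of 0.0799 and 1.28 (log2 ratio 4.0, interval 3.24 to 4.88). Fibrillar chains that accompany it in connective tissue were under 3 TPM in both libraries, Col1a1 with 2.66 and 2.95 (0.15, -0.05 to 0.35) and Col1a2 with 0.259 and 0.985 (1.93, 1.40 to 2.47). Of the 10 fibroblast or feeder cell markers listed, 4 had no reads in either library (Dcn, Lum, Postn and Fap). The summed TPM of that list was 168 in E14 and 249 in Sox2 T258A cells, of which Vim gave 114 and 214. Acta2 had a TPM of 2.05 and 13.7 and Thy1 had 40.1 and 11.4, so the list went in both directions.

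The other collagens at 1 TPM spread to both sides of no change. Those lower included Col2a1 of cartilage (TPM 5.99 and 3.11), Col6a2 of the beaded filaments (2.27 and 0.988), Col6a4, Col20a1, Col22a1 and Col27a1, with log2 ratios from -1.31 to -0.30. Those higher were Col7a1 of anchoring fibrils (TPM 1.82 and 2.65), Col8a2 and Col11a1, with log2 ratios from 0.54 to 0.74. Among the 29 members with reads but under 1 TPM, 15 were higher and 14 lower, and the interval excluded no change for 8 and 10 of them. By a mean TPM under 1, 17 of 33 members with reads were higher (51.5%), beside 37.3% of 4854 genes. The share of all genes with an interval that excluded no change was not counted at this level either. Col6a5 and Col6a6 are similar over a stretch of 572 bases at 95% identity or more, so that their reads (153 and 148 for Col6a5, 124 and 32 for Col6a6) may be split between them.

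**Figure D2:**
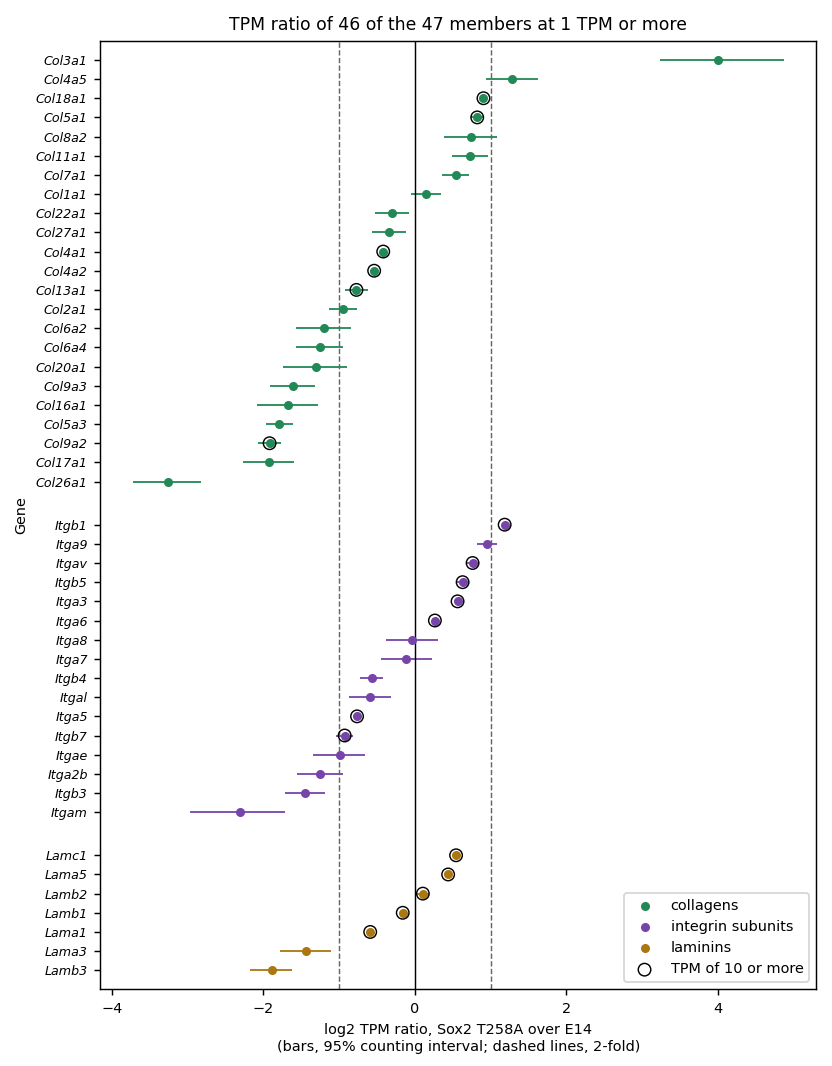
Log2 ratio of TPM (Sox2 T258A over E14) of 46 of the 47 members at 1 TPM or more, with the 95% counting interval as bars and 2-fold as dashed lines. Open rings mark the 18 members at 10 TPM or more, of which Itgb1 (1.19) and Col9a2 (-1.92) lie beyond the dashed lines.

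Among integrin alpha subunits, the laminin-binding Itga6 and Itga3 were higher in Sox2 T258A cells and the main fibronectin-binding subunit was lower. Itga6, the alpha subunit of the laminin receptor alpha6beta1 of ESCs, had a TPM of 75.0 in E14 and 90.1 in Sox2 T258A cells (log2 ratio 0.27, interval 0.23 to 0.30). Itga3, which pairs with beta1 to bind laminin-511 and laminin-332, had 39.3 and 58.1 (0.56, 0.51 to 0.62). Itga7, a laminin-binding subunit of muscle, was near 1 TPM and did not differ beyond counting error (1.53 and 1.41, -0.11, -0.45 to 0.22).

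Itga5, which pairs with beta1 as the fibronectin receptor, had 10597 reads in E14 and 4182 in Sox2 T258A cells, a TPM of 76.3 and 44.9 (log2 ratio -0.76, interval -0.82 to -0.71). Itgav, the alpha subunit of vitronectin receptors, had 10.4 and 17.7 (0.76, 0.68 to 0.84). These subunits, both binding the RGD motif, thus went in opposite directions. Itga5 lies on chromosome 15, where the median log2 ratio of 547 genes was -0.20, and its own was -0.57 after subtraction of that median. Itgav shares 5.90% of its exon bases with Gm13684 on the other strand.

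Integrin beta subunits other than beta1 went both ways. Itgb5, a partner of alphaV, had a TPM of 25.4 in E14 and 39.4 in Sox2 T258A cells (log2 ratio 0.63, interval 0.55 to 0.71), the same direction as Itgav. Itgb7, known from the gut-homing receptor of lymphocytes, had 31.6 and 16.6 (-0.93, -1.04 to -0.82) and lies on chromosome 15 as well. Its log2 ratio was -0.73 after subtraction of the chromosome median and passed 2-fold with the FPKM ratio (-1.07) and with the ratio centred on its median over genes at 10 TPM (-1.01).

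Itgb4, the partner of alpha6 in hemidesmosomes, had a TPM of 6.24 in E14 and 4.20 in Sox2 T258A cells (log2 ratio -0.57, interval -0.72 to -0.42). Itgb3, the platelet and vitronectin receptor subunit, had 3.32 and 1.22 (-1.45, -1.72 to -1.19), and its platelet partner Itga2b had 3.85 and 1.62 (-1.25, -1.56 to -0.95). Both subunits of alphaIIbbeta3 were therefore lower, while both of alphaVbeta5 were higher. Itgb8, a receptor for latent transforming growth factor beta, had no reads in E14 and 18 in Sox2 T258A cells and was at least 8.95-fold higher against the limit of 3 reads, with the 18 reads taken as exact. The 95% interval of its log2 ratio began at 2.71. Itgb6 had 3 reads in E14 and 0 in Sox2 T258A cells, too few for a ratio.

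Integrins of white blood cells were lower in Sox2 T258A cells where they had reads and, apart from Itgb7 above, they were low. Itgb2, their common beta subunit, had 87 reads in E14 and 2 in Sox2 T258A cells (log2 ratio -4.85, interval -7.92 to -2.95). Itgam had 188 and 26 reads (TPM 1.27 and 0.256, -2.31, -2.97 to -1.72), but 68.7% of its exon bases are shared with Gm49368 on the same strand, so its value is uncertain. Itgal had a TPM of 2.15 and 1.43, and Itgae, the partner of beta7, had 2.39 and 1.20. Of the 6 blood cell markers listed, Ptprc and Cd48 had no reads in either library, and the summed TPM of the list was 51.3 in E14 and 36.8 in Sox2 T258A cells, most of it from Laptm5 (47.2 and 34.8).

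Of the remaining alpha subunits, Itga9, which pairs with beta1 and binds tenascin, had a TPM of 3.98 in E14 and 7.71 in Sox2 T258A cells (log2 ratio 0.95, interval 0.83 to 1.08). Collagen-binding subunits were all under 1 TPM. Itga1 had 24 reads in E14 and 110 in Sox2 T258A cells (2.77, 2.12 to 3.47), Itga10 had 107 and 50 with 33.5% of its exon bases shared with Gm42957, Itga11 had 18 in each, and Itga2 had none. The 4 collagen-binding subunits summed to a TPM of 0.914 in E14 and 1.49 in Sox2 T258A cells, beside 325 and 369 for all collagen chains. Itga8, which binds the RGD motif, was level at a TPM of 1.02 and 0.997 (-0.03, -0.37 to 0.30).

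Set side by side, ligand chains had a lower ratio than receptor subunits both in their median and in their summed level. The median of log2((TPM + 0.1) ratio) was -0.48 over the 28 ligand chains whose mean TPM was 1 or more, of which 10 were higher and 18 lower. It was -0.10 over the 15 receptor subunits past the same limit, of which 6 were higher and 9 lower, and 0.04 over all genes. Summed TPM of ligand chains was 597 in E14 and 685 in Sox2 T258A cells (log2 ratio 0.20), and that of receptor subunits was 407 and 564 (0.47). The summed level of receptor subunits was 0.682 of that of ligand chains in E14 and 0.824 in Sox2 T258A cells.

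Both sums turned on 1 gene each. Without Col18a1, the ligand sum was 471 in E14 and 449 in Sox2 T258A cells, and without Itgb1 the receptor sum was 286 and 289. The other 43 collagens summed to 199 and 134 TPM, whereas the 11 laminins summed to 272 and 315. Itgb1 made up 64.2% of the summed TPM of beta subunits in E14 and 81.7% in Sox2 T258A cells.

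**Figure D3:**
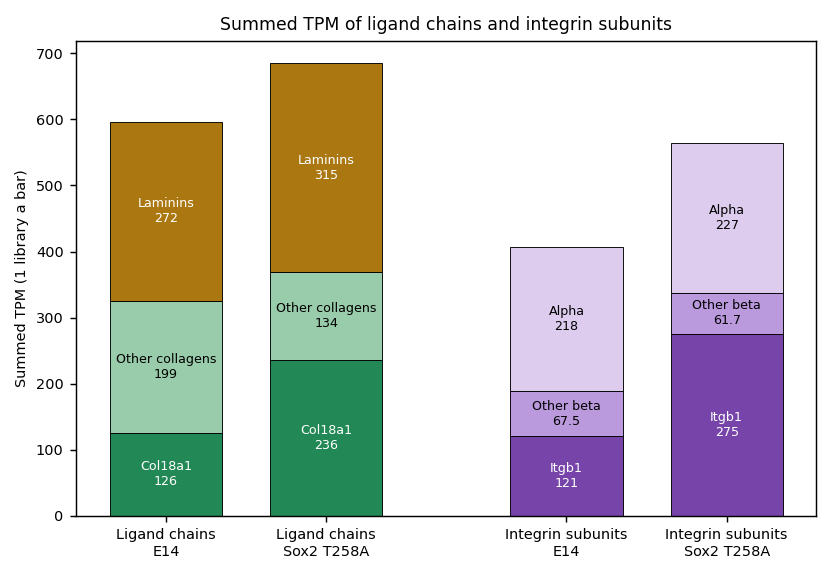
Summed TPM of ligand chains and of integrin subunits in each library, 1 bar a library, split into Col18a1, other collagens and laminins, and into Itgb1, other beta and alpha subunits. Col18a1 (126 and 236) and Itgb1 (121 and 275) account for the taller bars of Sox2 T258A, while the other collagens stand at 199 and 134.

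The level of Itgb1 was also set against that of its possible partners, since beta1 reaches the cell surface only in a dimer. Its 12 alpha partners summed to a TPM of 209 in E14 and 223 in Sox2 T258A cells, and Itgb1 was at 0.580 and 1.24 times that sum. RNA for the shared subunit was therefore below that of its partners in E14 and above it in Sox2 T258A cells. Among a list of trimers and dimers, those with a chain at 10 TPM were compared. All chains were higher for alpha6beta1, alpha3beta1, alpha9beta1, alpha1beta1 and alphaVbeta5, and for laminin-521 except that Lamb2 reversed with the FPKM ratio. All were lower for collagen IX, the main collagen IV trimer, alphaEbeta7 and alpha4beta7. Chains went in both directions for laminin-111, laminin-511, laminin-411, collagen V, alpha5beta1, alpha6beta4 and alphaVbeta3. The beta1 dimers all share the value of Itgb1, and Itga1 and Itga9 were themselves under 10 TPM. The list left out other beta1 dimers. Of their alpha subunits, Itga4 (log2 ratio -1.12) and Itga10 (-0.54) were lower and Itgav was higher (0.76). Itga7, Itga8 and Itga11 did not differ beyond counting error, and Itga2 had no reads.

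The direction of the members varied with their level. At a mean TPM of 10 or more, 10 of 18 members were higher in Sox2 T258A cells (55.6%), beside 57.9% of 8665 genes at that level. At a mean TPM of 1 to 10, 6 of 25 were higher (24.0%), beside 44.2% of 4604 genes. Under a mean TPM of 1, 17 of 33 members with reads were higher (51.5%), beside 37.3% of 4854 genes. The medians of log2((TPM + 0.1) ratio) at a mean TPM of 1 to 10 were -1.12 for 17 ligand chains, -0.56 for 8 receptor subunits and -0.12 for all genes. At a mean TPM of 10 or more they were -0.16 for 11 ligand chains, 0.56 for 7 receptor subunits and 0.09 for all genes. Ligand chains also had a higher GC content than other genes at 1 TPM (a median of 58.6% in the transcript, beside 53.2% for receptor subunits and 50.8% for all genes), and with the trend on GC content and length removed, the medians were -0.60 for ligand chains and -0.40 for receptor subunits.

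**Figure D4:**
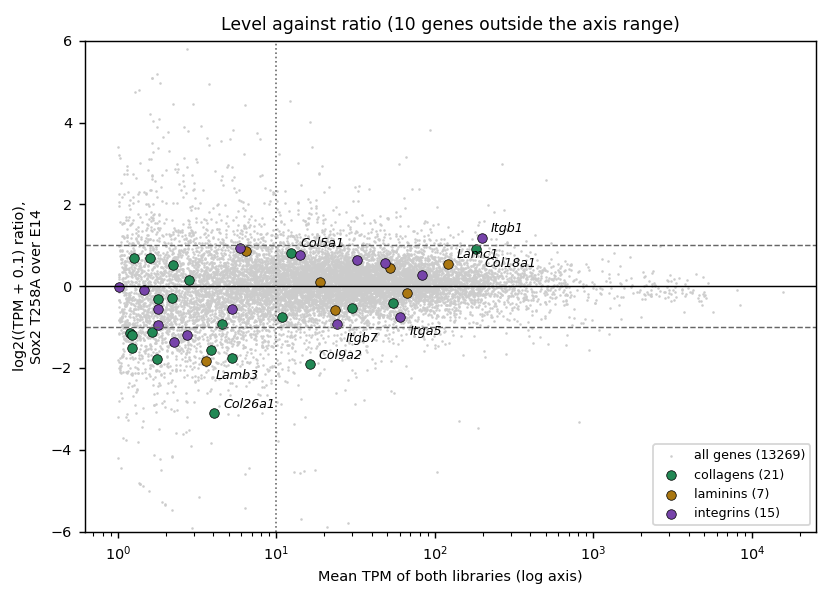
Log2((TPM + 0.1) ratio) of Sox2 T258A over E14 against the mean TPM of both libraries (log axis) for 13269 genes in grey, with 21 collagens, 7 laminins and 15 integrins in color. Dashed lines mark 2-fold and the dotted line a mean TPM of 10, left of which most colored points lie below 0.

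Genes that process and cross-link collagen were slightly lower in Sox2 T258A cells, with a median log2((TPM + 0.1) ratio) of -0.21 over 18 of 25 listed genes. Of these 18, 15 were lower and 3 higher, where 6216 of all 13269 genes past a mean TPM of 1 were lower. None of the 13 at 10 TPM passed 2-fold. Serpinh1, the collagen chaperone, had a TPM of 171 in E14 and 94.1 in Sox2 T258A cells (log2 ratio -0.86, interval -0.91 to -0.81), and P4ha2, a prolyl hydroxylase subunit, had the lowest ratio of those 18 with 26.0 and 13.8 (-0.91, -1.04 to -0.79). Loxl4, which cross-links collagen, had the highest ratio of those 18, from a low level (TPM 0.415 and 1.94).

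Other matrix glycoproteins and proteoglycans went both ways, 6 higher and 7 lower of 13 past a mean TPM of 1 (median -0.18). Ntn1, a laminin-related guidance protein, was the only one of 10 genes at 10 TPM beyond 2-fold, with a TPM of 4.80 in E14 and 32.5 in Sox2 T258A cells (log2 ratio 2.76, interval 2.65 to 2.87). Fbln2 had the lowest ratio of those 13 (TPM 3.04 and 1.04). Nidogens, which link laminin to collagen IV, went in opposite directions, since Nid1 had 46.1 and 28.2 and Nid2 had 143 and 206. Fn1, the ligand of alpha5beta1, had a TPM of 212 and 323, while Itga5 was lower.

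Cytoplasmic proteins linked to integrins were higher together with Itgb1. Of 20 past a mean TPM of 1, 17 were higher and 3 lower in Sox2 T258A cells, with a median of 0.56, where 53.2% of all genes past that limit were higher. At 10 TPM, 3 of 16 were more than 2-fold higher and 0 lower. These were the actin-binding Zyx (TPM 20.3 in E14 and 62.2 in Sox2 T258A cells, log2 ratio 1.62, the highest of the list), the scaffold Bcar1 (44.3 and 109, 1.30, on chromosome 8) and Tns3 (33.2 and 80.0, 1.27). Tns1 had the lowest ratio (5.20 and 3.93, -0.40). The share of 3 in 16 stands beside 4.17% of all genes past the filter.

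Matrix receptors other than integrins had a median of 0.21 over 9 genes, 6 higher and 3 lower, and none of the 6 at 10 TPM passed 2-fold. Cd44, the hyaluronan receptor, had the highest ratio of these 9 (TPM 1.21 in E14 and 3.04 in Sox2 T258A cells) and Sdc2 the lowest (9.00 and 5.85). Dag1, the laminin-binding dystroglycan, had 79.0 and 97.4. Matrix proteases and inhibitors had a median of -0.24 over 12 genes, 4 higher and 8 lower, with Mmp11 beyond 2-fold (TPM 136 and 55.1, log2 ratio -1.30) and Mmp14, a membrane protease that cleaves collagen, highest (16.7 and 30.9).

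**Figure D5:**
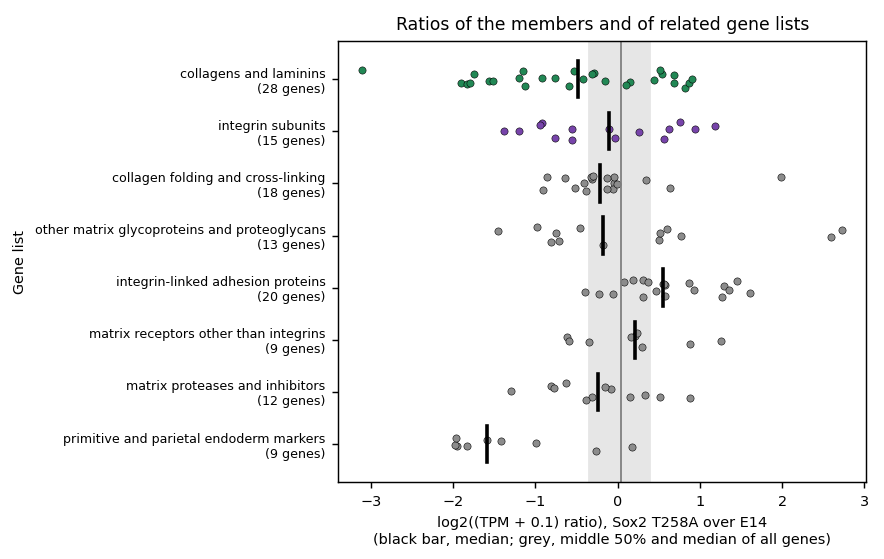
Log2((TPM + 0.1) ratio) of Sox2 T258A over E14 for genes whose mean TPM was 1 or more, 1 point a gene, in the members, in 5 lists of related genes and in primitive and parietal endoderm markers, with the median of each as a black bar. Grey marks the middle 50% of all genes (-0.34 to 0.39) and their median (0.04), which the adhesion proteins exceed at 0.56 and the endoderm markers fall below at -1.59.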

How the data were processed

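RNA-seq libraries of E14 and Sox2 T258A ESCs (1 each) were compared. Per the submitters' processing notes, bcl2fastq 2.20.0, Trimmomatic, HISAT2 2.1.0 and StringTie 2.1.3b were used with mm10 (hg19 is also named); strand and multiply mapped reads are not given in the sources used here. The authors deposited, per gene, whole read counts without normalization, FPKM values scaled by length and library, and TPM values scaled to a library sum of 993247 and 994155. Ratios of TPM were taken without a pseudocount, and genes at 10 TPM or more in at least 1 library (as in the study's filter) were called beyond 2-fold. Medians used log2((TPM + 0.1) ratio) at a mean TPM of at least 1. Intervals (95%, Clopper-Pearson, scipy 1.17.1) and the limit of 3 reads cover counting error only, since PCR copies are not independent molecules. With 1 library a group no p-value was computed, and the interval script was tested on simulated data.

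Positions came from RefSeq (GRCm38.p6), exon overlaps, GC content and length from GENCODE M21. Named were all members at 10 TPM, members at 1 to 10 TPM with the interval wholly beyond 2-fold, collagen IV, laminin, laminin-binding and integrin beta members with reads, and listed genes beyond 2-fold or with the extreme ratios; others were named after their values were seen. 1 member was counted in sums and medians but is not reported here by its own values. Members and lists were chosen with earlier results of these data known. Further marker lists were endothelial (summed TPM 7.16 in E14, 4.97 in Sox2 T258A) and trophoblast (63.1, 35.9). Both lists went in both directions. Tek (TPM 5.95 in E14, 3.27 in Sox2 T258A) and Tfap2c (50.9, 16.1) were lower, while Kdr (0.105, 0.648) and Cdx2 (0.474, 12.2) were higher. Of 4 trophoblast markers past a mean TPM of 1, 2 were higher and 2 lower. Alternatives were other filters, folds, pseudocounts and scalings (TMM of edgeR 4.0.16, size factors of DESeq2 1.42.0).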

Additional observations from a re-analysis of the deposited data

How the results depend on the processing

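Of the 224 values from 28 named members under other pseudocounts and scalings, 150 stayed within the counting interval, 73 moved beyond it in the same direction and 1 reversed (Lamb2 with the FPKM ratio, -0.037). The count of members more than 2-fold higher (1) became 3 at a filter of 1 TPM, 13 with no filter, 5 at 1.5-fold and 0 at 3-fold, and was 0 with chromosome medians or the GC and length trend removed, since Itgb1 then fell short of 2-fold. The count more than 2-fold lower (1) became 14 at 1 TPM, 5 at 5 TPM, 24 with no filter and 5 at 1.5-fold, and was 2 when centred on the median or with the FPKM ratio, since Itgb7 then passed. At 1 TPM the same rule called 6.45% of all genes higher and 9.95% lower. The shares of all genes under the remaining settings were not counted, so those counts show no lean of the members. The ligand median (-0.48) was -0.42 at 1 TPM, -0.29 at 20 TPM, -0.22 with no filter, -0.62 with FPKM, -0.63 with chromosome medians removed and -0.60 with the trend removed. The receptor median (-0.10) was -0.33 at 1 TPM and -0.18 with no filter, both nearer to the ligand median, and reversed to 0.56 at 5 TPM and 0.41 at 20 TPM. The log2 ratio of the ligand sum (0.20) was 0.055 with FPKM and reversed to -0.068 without Col18a1, and that of the receptor sum (0.47) was 0.33 with FPKM and 0.015 without Itgb1. The FPKM ratio lowered the median of all genes by 0.14. The causes of the other changes were not tested. With 1 library a genotype, no replicate could be left out, and differences between cultures or clones are outside what these intervals cover; below 10 TPM, the counting interval of most members is wide. No paired analysis was possible because each genotype had 1 library.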
